A study of Mus musculus with 63 samples.

Results

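The 36 genes described here encode enzymes of sterol synthesis, enzymes of fatty acid synthesis and the regulators that the 2 pathways share. They were picked out by gene name among the 54752 genes of the count tables, and all 36 names were found in each of the 4 tables. The sterol genes numbered 17, the fatty acid genes 13 and the regulators 6. RNA sequencing of polyA RNA had been done on mouse small intestinal organoids and on intestinal epithelial cells (IECs) in which the Mediator kinases CDK8 and CDK19 were deleted singly or together. Of 63 samples, 57 in 19 groups of 3 are used here.

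All animals and organoids were of the C57BL/6 strain. In the time course, organoids carrying VillinCreERT2; Cdk8 fl/fl; Cdk19 ko/ko received 100 nM 4-hydroxytamoxifen (4-OHT) or ethanol vehicle (EtOH) for 24 h and were collected on day 3, 5, 7 or 10. Organoids of the same genotype were treated likewise and collected on day 10 in Wnt3-conditioned medium (Wnt3-CM), and organoids carrying VillinCreERT2; Cdk8 fl/fl; Cdk19 ko/D173A on day 7. In a separate table all organoids received 4-OHT and were collected on day 7. Their genotypes were VillinCreERT2, VillinCreERT2; Cdk8 fl/fl (CDK8 deleted), C57BL/6 without Cre, Cdk8 fl/fl; Cdk19 ko/ko without Cre (CDK19 deleted) and VillinCreERT2; Cdk8 fl/fl; Cdk19 ko/ko (both deleted). IECs came from VillinCreERT2 mice and from VillinCreERT2; Cdk8 fl/fl; Cdk19 ko/ko mice, 14 days after the last of 5 daily injections of 80 mg/kg tamoxifen. The villin promoter drives CreERT2 in the intestinal epithelium, so Cdk8 is deleted only there and only after tamoxifen or 4-OHT. The Cdk19 ko allele is constitutive, so by their labels the EtOH organoids of the time course already carried it on both copies, and those of the D173A line carried 1 ko allele and 1 allele that encodes the kinase-dead D173A protein. In comparisons of 4-OHT with EtOH the drug and the deletion cannot be told apart, whereas both arms of the comparisons between lines had received 4-OHT. Within each organoid group the sample or column names share 1 number, which also joins the time course to the Wnt3-CM organoids, and nothing says that the 3 libraries came from separate mice. The p-values for organoids therefore measure only the spread between these libraries, which may be technical, whereas each IEC sample has a number of its own.

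Cells make cholesterol from acetyl-CoA through mevalonate, farnesyl diphosphate, squalene and lanosterol, and they make fatty acids from acetyl-CoA through malonyl-CoA, followed by elongation and desaturation. Both sets of enzymes are classical targets of the sterol regulatory element-binding proteins, membrane-bound precursors whose active N-terminal part is released when sterols are low: SCAP escorts them from the endoplasmic reticulum to the Golgi and the INSIG proteins hold SCAP back. SREBP2, from Srebf2, mainly serves sterol synthesis, and SREBP1, from Srebf1, mainly serves fatty acid synthesis. CDK8 is known to phosphorylate nuclear SREBP1 and to promote its turnover in liver. In the intestine the epithelium makes sterols and fatty acids of its own beside those it absorbs.

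Promoters are shown for members from each role whose RNA was called in at least 1 comparison or, for Hmgcs1, whose promoter held the searched element. RefSeq sequences of the GRCm38.p6 build covered 29 of the 36 genes, from 250 bases before to 50 after the start site. The window printed is the 200 bases before the start, 5′ to 3′ on the strand of the gene. Capitals mark the core of the sterol regulatory element (TCACNCCAC), the CCAAT box bound by NF-Y and the GGGCGG box bound by SP1, each on either strand, so that a match on the other strand reads ATTGG or CCGCCC. The windows lie at chr13:119690151-119690350 (+, Hmgcs1), chr19:6067851-6068050 (-, Tm7sf2), chrX:8193513-8193712 (-, Ebp), chr5:28071212-28071411 (+, Insig1), chr2:155517843-155518042 (+, Acss2) and chr9:77917165-77917364 (+, Elovl5).
Hmgcs1: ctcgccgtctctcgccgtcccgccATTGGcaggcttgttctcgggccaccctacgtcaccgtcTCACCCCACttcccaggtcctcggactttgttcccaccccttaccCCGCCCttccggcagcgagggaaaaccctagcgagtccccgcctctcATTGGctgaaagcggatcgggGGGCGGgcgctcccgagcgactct
Tm7sf2: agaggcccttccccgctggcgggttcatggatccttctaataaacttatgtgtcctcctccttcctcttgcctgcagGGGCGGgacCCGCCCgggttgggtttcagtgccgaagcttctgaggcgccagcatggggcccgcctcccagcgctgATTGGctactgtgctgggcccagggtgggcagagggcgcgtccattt
Ebp: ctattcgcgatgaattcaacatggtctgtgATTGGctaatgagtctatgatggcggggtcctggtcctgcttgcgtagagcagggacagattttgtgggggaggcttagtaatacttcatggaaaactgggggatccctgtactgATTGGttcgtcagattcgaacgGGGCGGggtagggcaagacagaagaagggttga
Insig1: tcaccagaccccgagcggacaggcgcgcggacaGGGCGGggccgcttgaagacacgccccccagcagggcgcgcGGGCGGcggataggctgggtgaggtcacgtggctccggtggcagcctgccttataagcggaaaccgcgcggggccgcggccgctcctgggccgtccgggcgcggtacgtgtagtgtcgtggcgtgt
Acss2: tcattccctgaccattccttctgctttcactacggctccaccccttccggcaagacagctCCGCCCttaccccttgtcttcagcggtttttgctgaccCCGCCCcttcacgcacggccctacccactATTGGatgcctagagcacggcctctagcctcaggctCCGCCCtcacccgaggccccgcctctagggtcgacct
Elovl5: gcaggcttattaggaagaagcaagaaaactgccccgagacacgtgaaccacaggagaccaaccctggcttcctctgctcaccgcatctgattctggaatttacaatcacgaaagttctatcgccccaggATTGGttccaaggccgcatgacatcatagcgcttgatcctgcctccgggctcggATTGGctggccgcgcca

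Among all 27025 genes with a promoter of this length, 1.44% held TCACNCCAC in at least 1 promoter, 41.1% held CCAAT and 38.2% held GGGCGG. The element core was found in 1 of the 29 genes, Hmgcs1, as TCACCCCAC starting 137 bases before the start site. CCAAT was present in 13 of 14 sterol genes, 4 of 5 regulators and 6 of 10 fatty acid genes. GGGCGG was present in 13 of 14 sterol genes, 5 of 5 regulators and 4 of 10 fatty acid genes. No matches of the 3 motifs overlapped. These are matches of letters within 1 window only, and elements of other spelling or position were not searched. Fdps, Fdft1, Sqle, Stard4, Scd1, Scd2 and Fads1 had no entry.

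Libraries held 15485959 to 32909565 counts. Levels are given in CPM (counts scaled to a common, TMM-normalised library size), and comparisons between genes in CPM per kilobase of merged exon. The CPM of Cdk8, Cdk19, Ddx3y and Xist were scaled to the plain total of each library, without TMM. A gene was called at an adjusted p under 0.05 and a change of more than 1.5-fold, with p from edgeR's quasi-likelihood F test and Benjamini-Hochberg adjustment over all genes tested. The whole-gene Cdk8 count overlapped between 4-OHT and EtOH on days 3, 5 and 10 of the time course (day 10: 52.8 to 56.9 CPM with 4-OHT, 55.8 to 58.2 with EtOH) and was 40.1 to 44.8 against 47.2 to 49.6 CPM on day 7. It was 79.4 to 85.4 CPM in organoids labelled CDK8 deleted and 64.7 to 67.3 with both deleted, against 69.9 to 80.0 in VillinCreERT2. In IECs it was 49.8 to 54.1 with both deleted against 44.1 to 50.1. Since the count does not resolve the excised exon it does not check the deletion. The whole-gene Cdk19 count was not lost with the ko allele either, at 24.4 to 26.2 CPM in organoids labelled CDK19 deleted against 28.4 to 35.1 in C57BL/6, 27.3 to 27.7 in organoids labelled as lacking both against 26.7 to 28.8 in VillinCreERT2, and 16.1 to 19.3 against 16.6 to 20.3 in IECs. What the ko allele removes is not given in the sources used here, so in these counts loss of Cdk19 rests on the labels. The study also measured Cdk8 and Cdk19 by qRT-PCR in organoids, which is not part of these counts. Epithelial markers (Epcam, Cdh1, Vil1, Krt8, Krt19) were high in every group, whereas the 6 immune markers summed to at most 0.886 CPM in organoids but to 1525 to 2735 CPM in IECs. The Y-linked Ddx3y was at 23.6 to 71.2 CPM in the time course, the Wnt3-CM organoids and the organoid lines with CDK8, CDK19 or both deleted, and at or near 0 in the VillinCreERT2, C57BL/6 and D173A organoids, so sex differed between the lines that are compared. Among IECs, double-deleted replicate 2 alone had Ddx3y (30.7 CPM) and little Xist (1.13 CPM). The members Nsdhl and Ebp are X-linked. In these bulk samples fewer cells of a type and less RNA per cell cannot be told apart.

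All members but 1 were well expressed. In EtOH organoids on day 3, Scd2, a stearoyl-CoA desaturase, had the highest level at 604.7 ± 39.2 CPM per kb (SD, n = 3), followed by Fads2 at 215 ± 7.36, Insig1 at 152 ± 6.67 and Scd1 at 109 ± 6.04. Mvd, Fads1, Fdft1 and Hmgcs1 came next at 86.1, 83.9, 83.8 and 83.4 CPM per kb, with SDs of 1.74 to 6.53. The gaps between Fads1, Fdft1 and Hmgcs1 were smaller than any of their SDs, and the gap from Mvd to Fads1 was smaller than the SD of Mvd. The lowest were Acaca, which encodes the acetyl-CoA carboxylase that commits carbon to fatty acids, at 3.50 ± 0.062 and Me1, the NADPH-producing malic enzyme, at 1.67 ± 0.093. Thrsp, a regulator of lipogenesis in liver and fat, did not pass the filter on low counts in any table and reached at most 0.946 CPM in organoids. The order differed in VillinCreERT2 IECs, where Ebp led at 39.4 ± 1.70 CPM per kb, followed by Stard4 at 37.8 ± 2.32, a gap smaller than the spread.

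**Figure D1:**
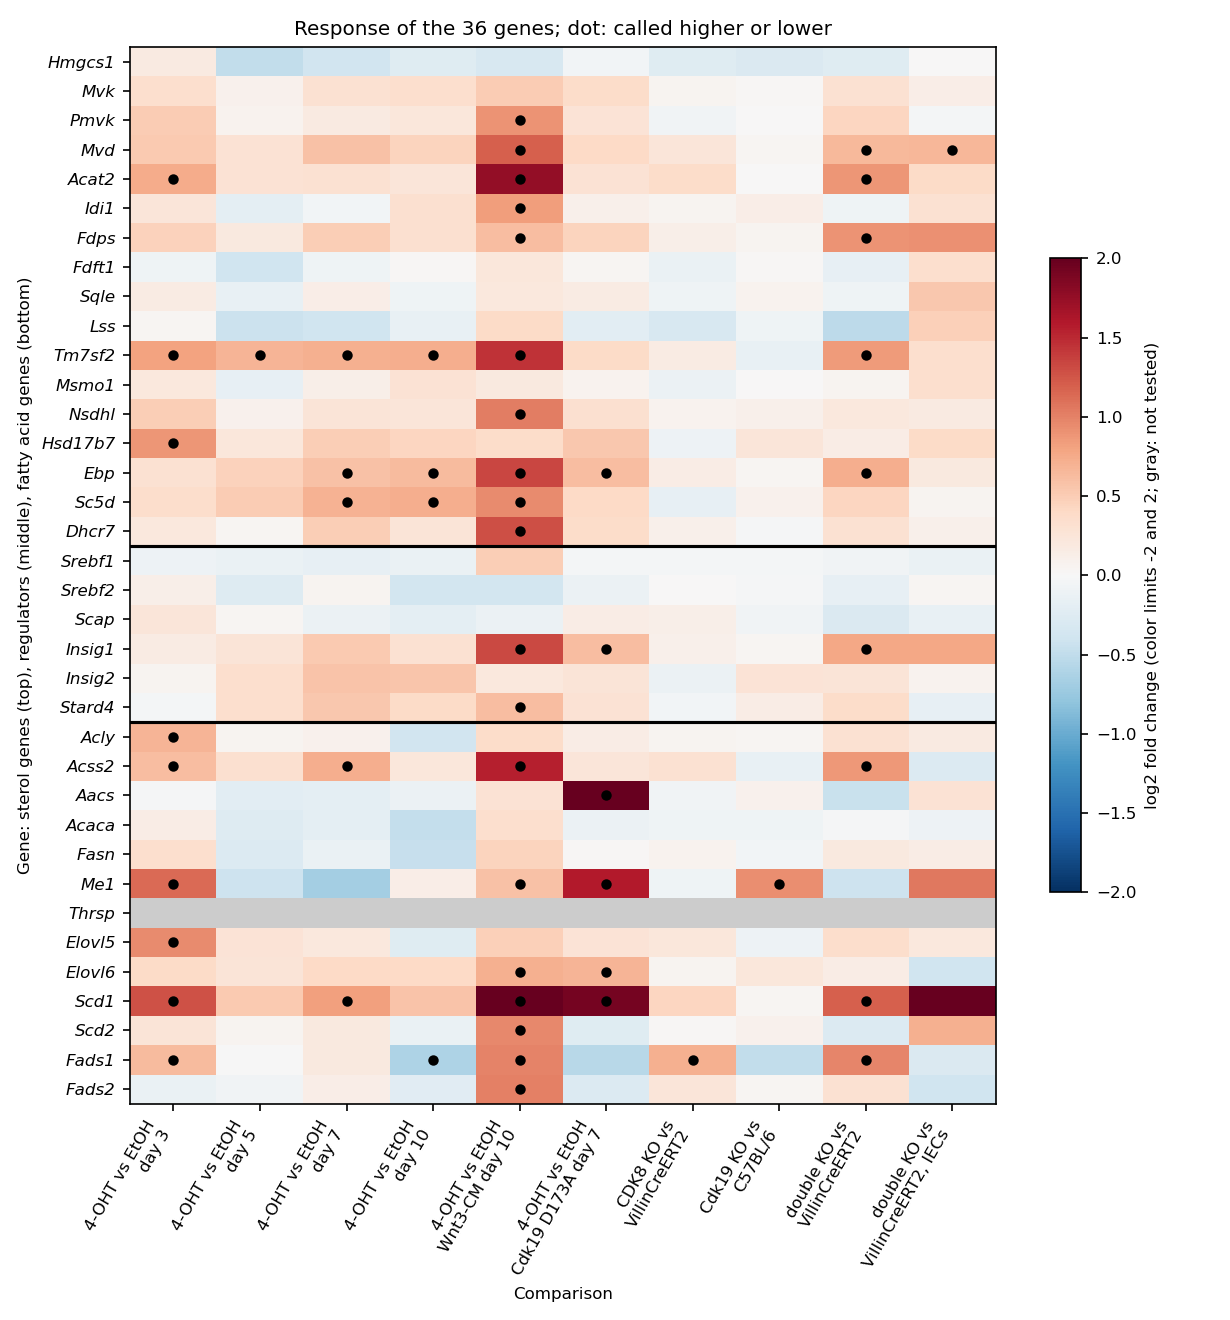
Each row is 1 of the 36 genes and each column 1 comparison of deleted with control samples; color gives the log2 fold change (blue lower, red higher) and a dot marks a call at adjusted p under 0.05 and more than 1.5-fold. The Wnt3-CM column holds 19 dots and the columns for deletion of CDK8 or CDK19 alone hold 1 each; the only dot on a lower gene is Fads1 on day 10.

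On day 3 of the time course, 3 sterol genes and 6 fatty acid genes rose with 4-OHT and none fell. Among all 15447 genes tested, 6.42% were called higher and 5.95% lower. The median log2 fold change was 0.50 for the fatty acid genes, 0.33 for the sterol genes, 0.09 for the regulators and -0.02 for all genes tested. Scd1, the desaturase that makes oleate from stearate, stood at 561, 502 and 533 CPM with EtOH and at 1295, 1282 and 1273 CPM with 4-OHT. The groups were far apart, at a log2 fold change of 1.27 ± 0.10 (SE; adjusted p = 3.73e-11). Elovl5, an elongase of polyunsaturated fatty acids, was at 64.6, 65.9 and 62.2 CPM with EtOH and at 121, 120 and 132 with 4-OHT (0.95 ± 0.07, adjusted p = 1.83e-11). Both genes thus stood higher in all 3 libraries with 4-OHT than in any with EtOH. The malic enzyme gene Me1 was at only 6.05, 6.48 and 6.76 CPM with EtOH and at 16.2, 14.1 and 12.2 with 4-OHT (1.14 ± 0.34, adjusted p = 0.0152). Its call was lost without EtOH replicate 1 (1.10, adjusted p = 0.0519) and without 4-OHT replicate 1 (1.03, adjusted p = 0.0555). Acly and Acss2, which supply acetyl-CoA from citrate and from acetate, rose by 0.68 and 0.61 on the log2 scale, and the delta-5 desaturase Fads1 by 0.64. Fasn, the fatty acid synthase itself, was at 360, 414 and 416 CPM against 510, 510 and 491. Its groups did not overlap, yet the difference of 0.34 ± 0.09 (adjusted p = 0.00309) was under 1.5-fold.

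Among sterol genes on day 3 the calls fell on Hsd17b7, Tm7sf2 and Acat2. Hsd17b7, a 3-keto reductase acting after lanosterol, was at 56.0, 54.2 and 57.4 CPM with EtOH and at 99.9, 104 and 107 with 4-OHT (0.89 ± 0.06, adjusted p = 4.31e-12). Tm7sf2, a sterol reductase of the same segment, was at 76.7, 80.5 and 78.8 against 141, 131 and 139 CPM (0.80 ± 0.06, adjusted p = 3.69e-11). Acat2, the cytosolic thiolase that makes acetoacetyl-CoA, was at 127, 117 and 120 against 208, 191 and 209 CPM (0.74 ± 0.08, adjusted p = 7.17e-09). None of the 3 overlapped between groups. The other 14 sterol genes were not called and ranged from -0.08 for Fdft1, squalene synthase, to 0.52 for Mvd, mevalonate diphosphate decarboxylase. Hmgcs1, the HMG-CoA synthase at the entry of the pathway, was at 381, 392 and 377 against 420, 437 and 450 CPM, and Sqle, squalene epoxidase, at 384, 354 and 369 against 418, 420 and 408. Both differences, 0.18 (adjusted p = 0.0351) and 0.17 (adjusted p = 0.0372), passed the test on p but not on size. Enterocyte markers moved in the same libraries: 5 of 6 fell, and their summed level was 1681 to 2003 CPM with 4-OHT against 4540 to 4947 with EtOH, Alpi, Apoa1, Apoa4, Fabp1, Sis and Lct being the 6. Cidec, the 1 adipocyte marker tested, rose (1.28). The part of this change in cell markers in the lipid genes was not tested.

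Fewer members were called later in the course, and Tm7sf2 was the 1 member called on all 4 days. On day 5 only Tm7sf2 was called (8.58% of all genes higher, 4.62% lower), at 116, 115 and 119 CPM with EtOH and 182, 188 and 192 with 4-OHT (0.69 ± 0.06, adjusted p = 1.18e-09). On day 7 Tm7sf2, Ebp, Sc5d, Acss2 and Scd1 rose and none fell (9.00% of all genes higher, 9.25% lower). On day 10 Tm7sf2, Ebp and Sc5d rose and Fads1 fell (8.86% higher, 6.92% lower). The medians for sterol and fatty acid genes were 0.09 and 0.02 on day 5, 0.30 and 0.16 on day 7, and 0.29 and -0.18 on day 10, with medians over all genes within 0.02 of 0 on these days. The fatty acid median of day 5 was -0.012 and -0.026 without EtOH replicates 1 and 2, 0.0026 and -0.017 without 4-OHT replicates 2 and 3 and 0.042 without EtOH replicate 3, and the sterol median 0.051 and 0.058 without 4-OHT replicates 2 and 3. Without 4-OHT replicate 3 of day 7 the fatty acid median was 0.095 and the sterol median 0.20. Tm7sf2, the sterol isomerase Ebp and the sterol desaturase Sc5d act after lanosterol, as do Msmo1, Nsdhl, Hsd17b7 and Dhcr7, which were not called on day 7 or day 10.

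Sc5d was at 316, 304 and 293 CPM with EtOH on day 7 against 479, 510 and 484 with 4-OHT (0.69 ± 0.07, adjusted p = 2.01e-09), and at 244, 207 and 214 against 378, 383 and 343 on day 10 (0.73 ± 0.07, adjusted p = 5.82e-10). Ebp was at 102, 86.5 and 100 against 136, 142 and 158 CPM on day 7 (0.59) and at 107, 106 and 108 against 169, 177 and 152 on day 10 (0.63). The lowest 4-OHT library stood above the highest EtOH library for both genes on both days, but Ebp was close to the size threshold. Its call was lost on day 7 without EtOH replicate 2 (0.51) or 4-OHT replicate 3 (0.52), and on day 10 without 4-OHT replicate 2 (0.58). Scd1 stood at 1754, 1707 and 1626 against 2388, 3117 and 3486 CPM on day 7 (0.82 ± 0.09, adjusted p = 5.90e-08). On day 10 it stood at 738, 799 and 839 against 1208, 1141 and 1164 (0.56 ± 0.09, adjusted p = 1.67e-05), higher in each 4-OHT library but just under 1.5-fold. Fads1 went the other way on day 10, at 384, 434 and 419 against 251, 275 and 277 CPM (-0.62 ± 0.08, adjusted p = 2.64e-07), a call lost without 4-OHT replicate 1 (-0.58). Fasn was at 590, 523 and 567 against 481, 342 and 395 CPM that day (-0.47 ± 0.09, adjusted p = 8.88e-05), all 3 lower with 4-OHT and under 1.5-fold. Me1 was at 52.4, 39.9 and 38.8 against 26.7, 24.7 and 30.3 CPM on day 7, lower in each 4-OHT library, at -0.68 ± 0.27 (adjusted p = 0.0526). Proliferation and Paneth markers also stood lower with 4-OHT from day 5 on: the 6 proliferation markers summed to 682 to 716 CPM against 1106 to 1195 on day 10 and the 4 Paneth markers to 1840 to 2168 against 7282 to 7384. Of 6 enterocyte markers 2 fell on day 5 and 2 rose on day 10, and 1 of 5 goblet markers fell on day 7 and on day 10. On day 7, 1 of 2 mesenchymal markers tested fell. The 4 of that list summed to 1.11 to 35.7 CPM with EtOH and 1.03 to 1.51 with 4-OHT. Their part in the lipid results was not tested.

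**Figure D2:**
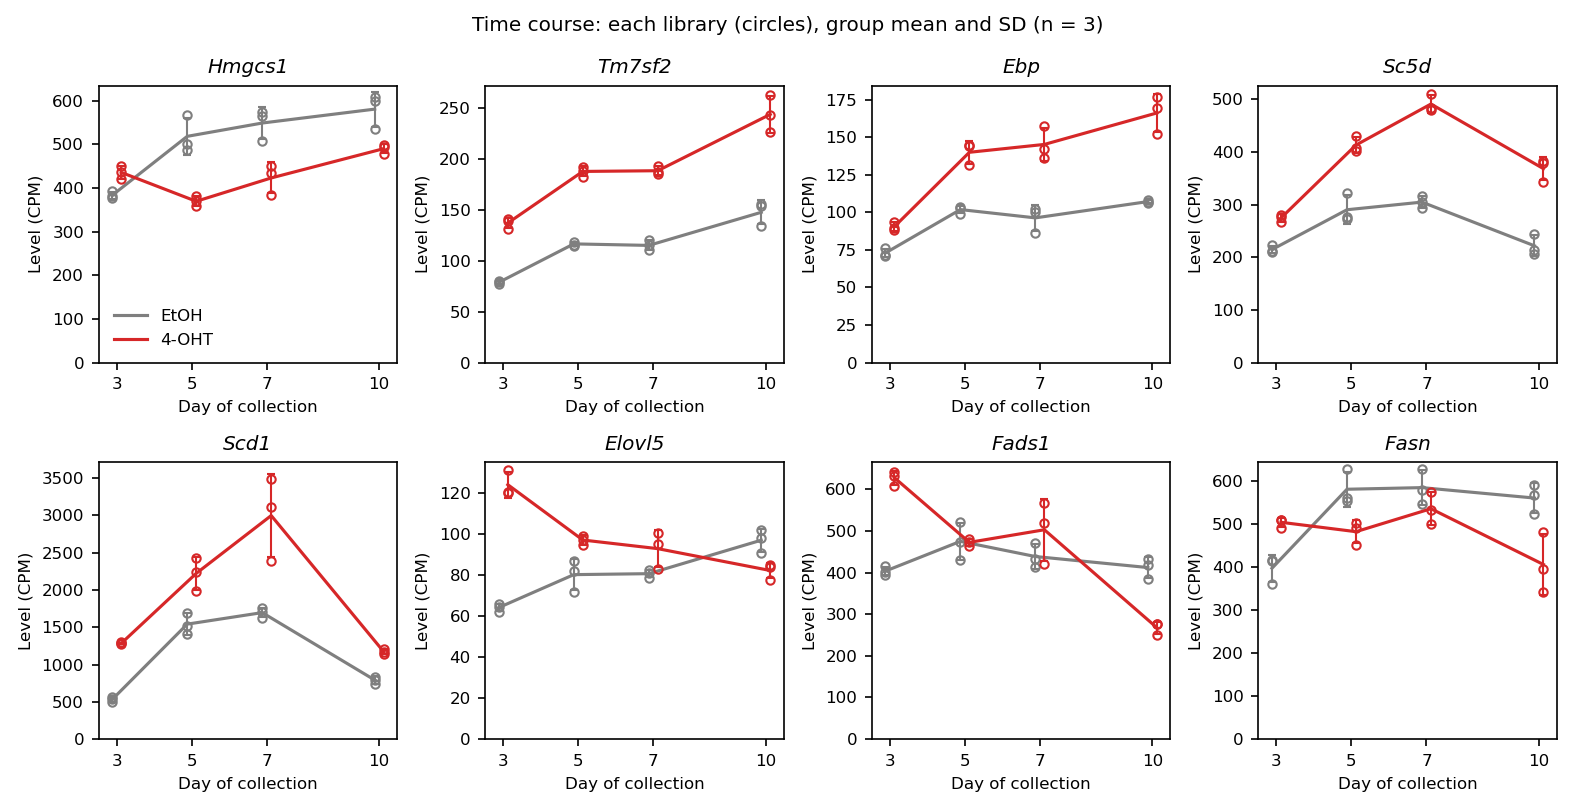
Levels in CPM against the day of collection for 4 sterol genes (top) and 4 fatty acid genes (bottom), with EtOH in gray and 4-OHT in red; circles are libraries, lines join group means and bars are SD (n = 3). Tm7sf2, Ebp and Sc5d are above EtOH on every day, whereas Elovl5, Fads1 and Fasn are above EtOH on day 3 and below it on day 10.

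The difference between the responses on day 10 and day 3 was tested as a contrast within the same fit, which shares its libraries with both days. Among all genes, 13.9% were called with a higher and 12.4% with a lower log2 response on day 10. Of the 12 fatty acid genes tested 6 were called lower and none higher, and no sterol gene or regulator was called. The medians were -0.67 for fatty acid genes, -0.08 for sterol genes and 0.03 over all genes. The response of Fads1 differed by -1.26 ± 0.11 on the log2 scale (adjusted p = 3.29e-10), that of Elovl5 by -1.19 ± 0.10 (adjusted p = 9.53e-11) and that of Acly by -1.06 ± 0.09 (adjusted p = 1.28e-10). Fasn (-0.81), Scd1 (-0.71) and Acaca (-0.63) completed the 6, and Acaca lost its call without 4-OHT day 10 replicate 2 (-0.57). Of the 6, Scd1 was above 0 on both days, and the rest were above 0 on day 3 and below it on day 10. In the same contrast 4 of 6 enterocyte markers were called higher, and 5 of 6 proliferation markers, 4 of 4 Paneth markers and Cidec lower, and their part in the lipid results was not tested. Hmgcs1 differed by -0.43 ± 0.10 (adjusted p = 0.000514), under 1.5-fold. It was lower with 4-OHT on day 5 (501, 486 and 567 against 358, 380 and 369 CPM; -0.49, adjusted p = 2.33e-06), day 7 (507, 574 and 565 against 383, 435 and 451; -0.38) and day 10 (535, 599 and 607 against 498, 478 and 493; -0.24), always without overlap and always under 1.5-fold.

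The EtOH organoids themselves changed with time in culture. Between day 3 and day 10, 4 sterol genes, 4 fatty acid genes and the regulator Insig2 rose and none fell, while 16.0% of all genes rose and 22.4% fell. With 1 library left out the called members numbered 6 to 12, and 5702 to 5908 of all genes were called. Of the markers, 3 of 6 for proliferation, 1 of 4 for Paneth cells, 1 of 6 for enterocytes and Cidec (1.03) rose too, and their part was not tested. Idi1, isopentenyl diphosphate isomerase, went from 34.2, 34.3 and 34.3 CPM to 66.5, 69.7 and 67.1 (0.98 ± 0.08, adjusted p = 1.01e-11). Tm7sf2 went from 76.7, 80.5 and 78.8 to 134, 153 and 155 (0.91 ± 0.06, adjusted p = 3.94e-13), and Me1 from 6.05, 6.48 and 6.76 to 42.0, 20 and 23.2 (2.14 ± 0.33, adjusted p = 1.70e-05). These 3 rose in every library and in every alternative run. Hmgcs1, Pmvk, Insig2, Aacs, Elovl5 and Elovl6 lay between 0.59 and 0.62 on the log2 scale, at the edge of the size threshold, and each lost its call without at least 1 of the EtOH libraries. Dhcr7 was at 395, 333 and 310.4 CPM on day 3 and 207, 237 and 253 on day 10 (-0.57 ± 0.09, adjusted p = 1.60e-06), just under 1.5-fold. It was called lower without EtOH day 10 replicate 3 (-0.63) and without day 3 replicate 2 (-0.61) or replicate 3 (-0.66), and with at least 10 counts in every library (-0.66), where Fdft1 was called lower too (-0.61).

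In Wnt3-CM the response was broader. Of the 35 members tested, 10 sterol genes, 7 fatty acid genes and 2 regulators rose and none fell, against 9.45% of all genes called higher and 7.42% lower. The medians were 0.83 for the sterol genes, 0.65 for the fatty acid genes, 0.35 for the regulators and 0.00 for all genes. Every fatty acid gene tested and 16 of 17 sterol genes had a log2 fold change above 0. Scd1 was at 220, 152 and 160 CPM with EtOH and at 1291, 1563 and 1299 with 4-OHT (2.97 ± 0.16, adjusted p = 1.5e-06). Acat2 was at 71.5, 63.8 and 61.6 against 219, 229 and 216 CPM (1.75 ± 0.07, adjusted p = 2.20e-14), and Acss2 at 95.0, 82.0 and 90.0 against 264, 277 and 245 (1.56 ± 0.07, adjusted p = 2.01e-13). For these 3 genes of acetyl-CoA use and fatty acid desaturation each 4-OHT library stood well above the highest EtOH library. Tm7sf2 was at 88.4, 80.8 and 87.8 against 233, 239 and 225 CPM (1.44 ± 0.07, adjusted p = 1.90e-13), and Ebp at 60.2, 53.4 and 61.5 against 158, 148 and 135 (1.33 ± 0.08, adjusted p = 5.05e-12). Dhcr7, which encodes the last reductase before cholesterol, was at 115, 98.1 and 103 against 274, 264 and 233 (1.28 ± 0.08, adjusted p = 1.54e-11). None of these groups overlapped. Mvd (1.20), Nsdhl (1.02), Sc5d (0.94), Pmvk (0.90) and Idi1 (0.83) rose as well, as did the desaturase genes Fads1 (1.00), Fads2 (1.00) and Scd2 (0.96) and the elongase gene Elovl6 (0.71).

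A few calls in Wnt3-CM lay near the size threshold. Fdps, farnesyl diphosphate synthase, at 0.62, lost its call without EtOH replicate 2 (0.57), EtOH replicate 3 (0.58) or 4-OHT replicate 1 (0.56). Me1 at 0.59 lost it without the same libraries (0.54, 0.54 and 0.48), and Stard4, a carrier of cholesterol in the cytosol, at 0.62, without EtOH replicate 3 (0.57). Hmgcs1 was again the exception among sterol genes, at 613, 604 and 604 CPM with EtOH and 483, 494 and 476 with 4-OHT (-0.33 ± 0.06, adjusted p = 0.000254), lower in every 4-OHT library but under 1.5-fold. Fasn was at 321, 278 and 284 against 401, 461 and 345 CPM (0.45 ± 0.09, adjusted p = 0.000912). Of 6 enterocyte markers 4 rose in the same comparison, although their sums overlapped (5634 to 6034 CPM with 4-OHT, 5185 to 6351 with EtOH). The Paneth markers summed to 1622 to 1992 CPM against 5933 to 6566, 3 of 5 goblet markers fell, with sums of 973 to 1046 against 1337 to 1611, and Cidec fell (-1.17). Their part in the lipid results was not tested.

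**Figure D3:**
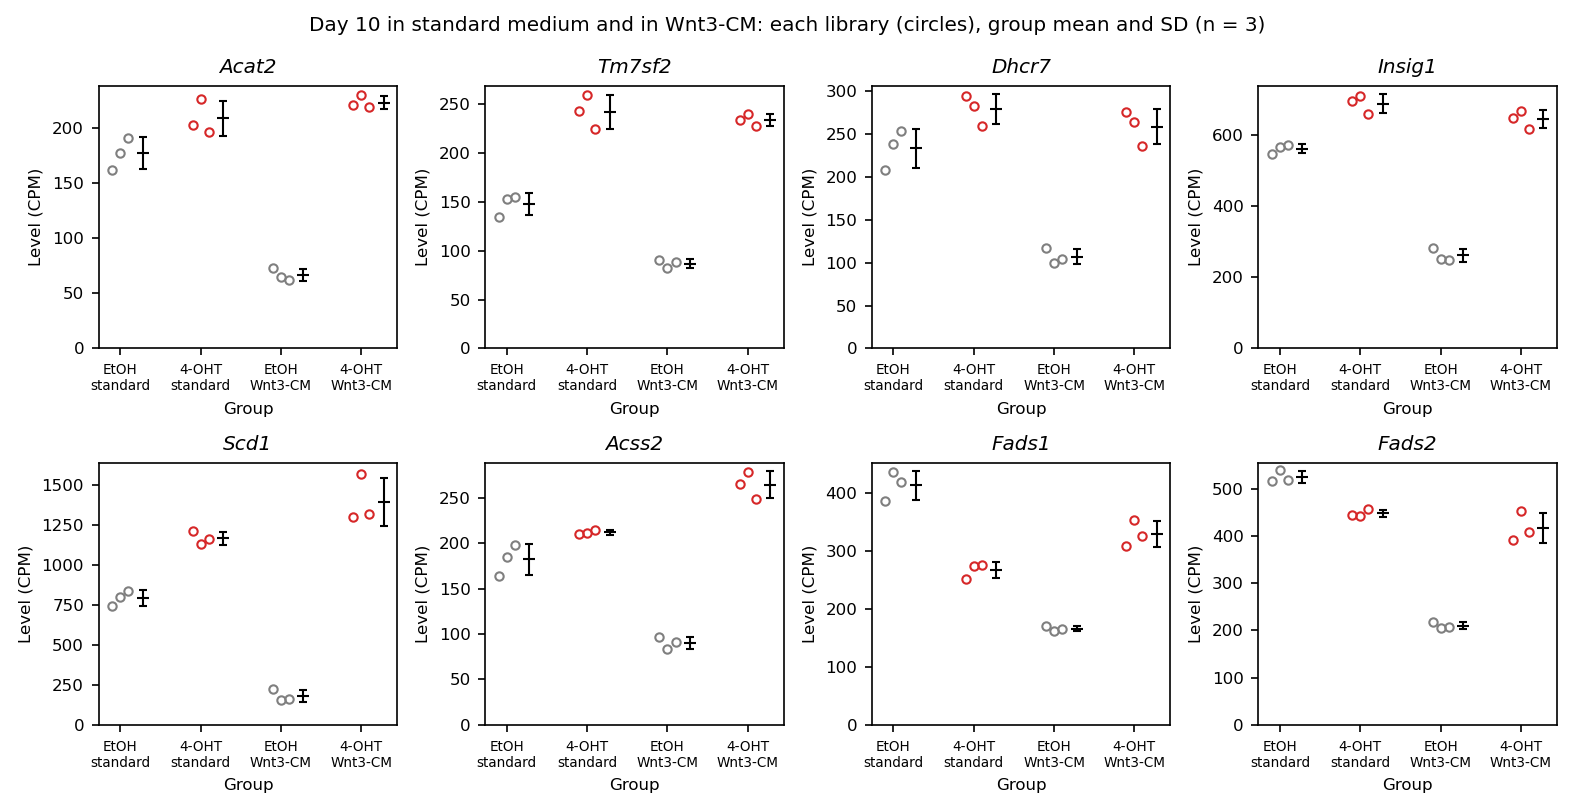
Levels in CPM, normalised over the 12 libraries together, for 4 genes of sterol synthesis and its regulation (top) and 4 fatty acid genes (bottom) on day 10 in standard medium and in Wnt3-CM; circles are libraries and the bar is mean and SD (n = 3), with EtOH in gray and 4-OHT in red. For all 8 genes the lowest group is EtOH in Wnt3-CM.

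The 2 media were compared in a joint fit over 12 libraries, in which medium, count table and any difference in sequencing run cannot be told apart for levels, while each response is measured within its own table. The log2 response was higher in Wnt3-CM for 7 sterol genes, 9 fatty acid genes and 2 regulators and lower for none, against 7.11% of all genes called higher and 6.21% lower. Of the markers, 5 of 6 for proliferation and 4 of 6 for enterocytes were called higher and 2 of 5 for epithelium and Cidec lower, and their part was not tested. The medians were 0.86 for fatty acid genes and 0.51 for sterol genes, and 0.00 over all genes. Scd1 had the largest difference, at 2.40 ± 0.16 (adjusted p = 8.01e-08). Its levels in the joint fit were 741, 801 and 839 CPM with EtOH and 1209, 1131 and 1159 with 4-OHT in standard medium, against 224, 154 and 162 with EtOH and 1297, 1568 and 1315 with 4-OHT in Wnt3-CM. The media thus differed more with EtOH than with 4-OHT. Fads1, which was lower with 4-OHT in standard medium and higher in Wnt3-CM, differed by 1.62 ± 0.09 (adjusted p = 4.84e-10). For Acat2, at 1.5 ± 0.10 (adjusted p = 5.23e-09), the joint levels were 162, 177 and 191 with EtOH and 203, 226 and 196 with 4-OHT in standard medium, and 72.9, 64.6 and 62.2 with EtOH and 220, 229 and 219 with 4-OHT in Wnt3-CM. For this gene the 4-OHT groups of the media overlapped and the EtOH groups did not. Fasn (0.91), Acaca (0.81), Acly (0.74) and Elovl5 (0.71), none of which was called in Wnt3-CM alone, differed between the media as well. Srebf1 differed by 0.62 ± 0.11 (adjusted p = 0.000332), a call lost without Wnt3-CM EtOH replicate 2 (0.56) or 4-OHT replicate 1 (0.54).

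Deletion of either kinase alone was compared between lines on day 7, all with 4-OHT. With CDK8 deleted, 1 member was called higher and none lower (2.90% and 4.34% of all genes). This was Fads1, at 164, 147 and 160 CPM in VillinCreERT2 organoids and 253, 252 and 262 with CDK8 deleted (0.71 ± 0.05, adjusted p = 4.15e-10). Scd1 was at 1437, 1374 and 1513 against 1788, 1906 and 2153 CPM (0.44 ± 0.08, adjusted p = 0.000162), higher in each library but under 1.5-fold. With CDK19 deleted, compared with C57BL/6 organoids, 1 member was called higher and none lower (2.86% and 2.39%). This was Me1, at 34.4, 31.8 and 32.9 CPM against 69.0, 58.7 and 61.1 (0.93 ± 0.07, adjusted p = 1.06e-10). Scd1 was at 1125, 1084 and 912 against 1118, 1004 and 1078 CPM in that comparison, with overlapping groups. The median log2 fold changes of sterol and fatty acid genes were 0.05 and 0.06 with CDK8 deleted and 0.03 and 0.03 with CDK19 deleted, against medians of 0.02 and -0.01 over all genes. With the control lines averaged, the fatty acid medians were 0.22 for CDK8 and -0.029 for CDK19, and neither Fads1 with CDK8 deleted (0.30) nor Me1 with CDK19 deleted (-0.080) was called, whereas Scd1 (0.67) and Me1 (0.92) were called higher with CDK8 deleted. With 1 library left out the medians ranged from 0.026 to 0.065 (sterol) and 0.035 to 0.12 (fatty acid) with CDK8 deleted, and from -0.030 to 0.072 and -0.029 to 0.069 with CDK19 deleted. With CDK8 deleted 3 of 6 enterocyte markers fell, their sum being 7548 to 8838 CPM against 10953 to 13343, and 2 of 5 goblet markers fell. With CDK19 deleted 1 of 4 Paneth markers fell, at sums of 2851 to 3087 against 3739 to 4436 CPM, and the 1 adipocyte marker tested rose (0.66). Their part in the lipid results was not tested.

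With both kinases deleted, 5 sterol genes, 3 fatty acid genes and Insig1 rose against the VillinCreERT2 line and none fell, against 11.5% of all genes higher and 7.95% lower. The control is shared with the comparison for CDK8. The medians were 0.30 for sterol genes and 0.25 for fatty acid genes, and 0.00 over all genes. Scd1 was at 1437, 1374 and 1513 CPM in the control and 3111, 3616 and 3194 in the line with both deleted (1.20 ± 0.08, adjusted p = 1.43e-11). Fads1 was at 164, 147 and 160 against 299, 319 and 307 (0.98 ± 0.06, adjusted p = 1.48e-13), and Acss2 at 203, 218 and 194 against 356, 403 and 367 (0.87 ± 0.06, adjusted p = 1.47e-11). All 3 fatty acid genes were clear of the control in every library. Fdps was at 62.2, 65.2 and 62.2 against 117, 117 and 118 CPM (0.89 ± 0.07, adjusted p = 4.60e-11), Acat2 at 187, 190 and 175 against 332, 347 and 341 (0.89 ± 0.05, adjusted p = 2.37e-13), and Tm7sf2 at 75.6, 76.6 and 74.7 against 137, 138 and 135 (0.86 ± 0.06, adjusted p = 4.83e-12). The spread within each group of these sterol genes was a small part of the gap between groups. Ebp (0.73) and Mvd (0.64) completed the 5. Lss, which closes the sterol ring to lanosterol, was at -0.52 (adjusted p = 4.77e-09) and Hmgcs1, at 776, 809 and 760 against 648, 658 and 671 CPM, at -0.25 (adjusted p = 0.000299), both under 1.5-fold. All 4 Paneth markers fell in the same comparison, summing to 583 to 604 CPM against 1838 to 1934, as did 3 of 5 goblet markers, while 2 of 6 enterocyte markers rose. The part of these markers in the lipid results was not tested.

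The double deletion was then tested against the sum of the single deletions in the same fit. Fdps (0.74), Tm7sf2 (0.85), Insig1 (0.64), Acss2 (0.72), Scd1 (0.73) and Fads1 (0.76) exceeded the sum and Me1 (-1.25) fell short of it, against 11.3% of all genes called above and 8.34% below. The share of members called was near that of all genes. In this contrast the VillinCreERT2 control, shared by the double and the CDK8 deletion, cancels, and the C57BL/6 control remains. Of the markers, 4 of 6 for enterocytes were called above the sum. Below it were 3 of 4 for Paneth cells, 1 of 6 for proliferation and the 1 mesenchymal marker tested, and their part was not tested. The control lines differed from each other: C57BL/6 organoids were called higher than VillinCreERT2 organoids for Fads1 (0.80) and Acss2 (0.62) and lower for Me1, against 15.5% of all genes higher and 10.9% lower. Between them 3 of 4 Paneth markers and the 1 mesenchymal marker tested were called higher. Lower were 2 of 6 enterocyte markers, 2 of 5 goblet markers and the 1 adipocyte marker tested (-1.76), and the part of these markers was not tested. Me1 was at 127, 141 and 134 CPM in VillinCreERT2 and 34.4, 31.8 and 32.9 in C57BL/6 organoids (-2.02 ± 0.07, adjusted p = 1.65e-18), a wider gap than any of the deletions gave for it. Acss2 lost its call between the controls without VillinCreERT2 replicate 3 (0.58). With the mean of both controls as the control, the double deletion left Scd1 called, while Acss2 (0.56), Fads1 (0.58) and Mvd (0.53) were no longer past 1.5-fold and Fads1 was at 0.30 with CDK8 deleted, while Lss (-0.61) and Sc5d (0.59) passed it. With that control Me1 changed sign in all 3 comparisons.

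**Figure D4:**
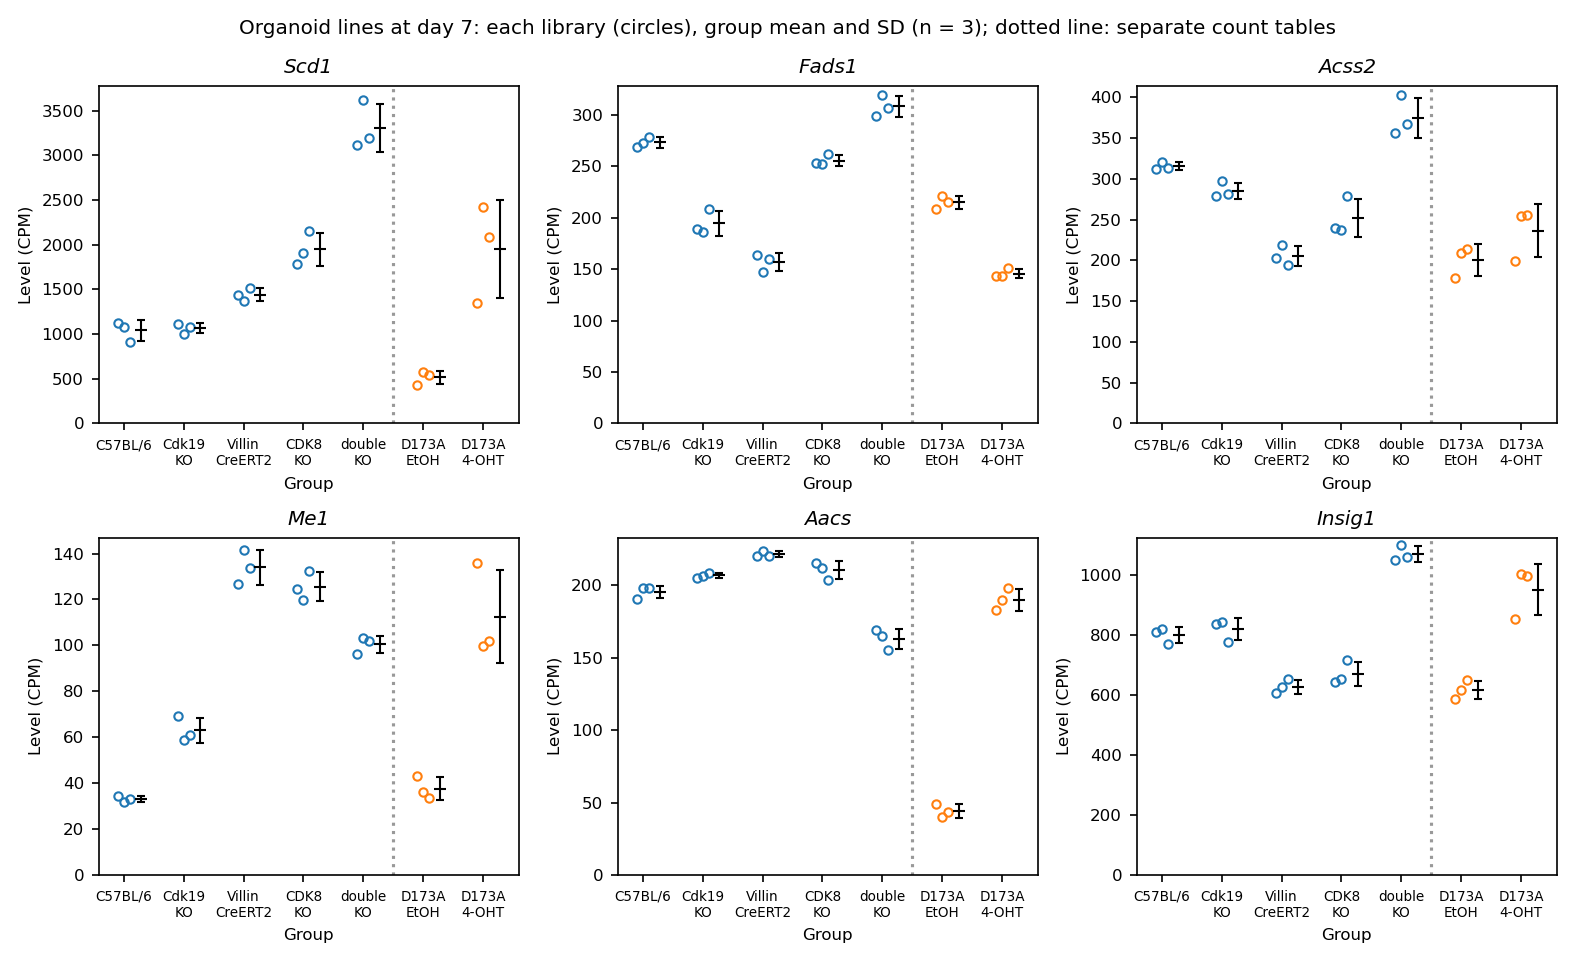
Levels in CPM of 6 genes in organoids on day 7 for 5 lines treated with 4-OHT (blue) and for the D173A line with EtOH or 4-OHT (orange); circles are libraries and the bar is mean and SD (n = 3), and the 2 colors were normalised separately. Scd1 is highest with both kinases deleted, Me1 differs between the C57BL/6 and VillinCreERT2 controls, and Aacs is lowest in the D173A line with EtOH.

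In the line with 1 kinase-dead D173A allele of Cdk19, 4 fatty acid genes, 1 sterol gene and 1 regulator rose with 4-OHT on day 7 and none fell (6.05% of all genes higher, 6.25% lower). Aacs, the cytosolic enzyme that activates acetoacetate, was at 49.3, 40.1 and 43.2 CPM with EtOH and at 183, 189 and 198 with 4-OHT (2.10 ± 0.08, adjusted p = 1.71e-07). In the other 48 organoid libraries it was at 144 to 251 CPM, so it is the EtOH group of this line that stands apart. Scd1 was at 436, 571 and 544 against 1350, 2418 and 2084 CPM (1.92 ± 0.24, adjusted p = 0.00354), and Me1 at 43.0, 36.3 and 33.4 against 136, 99.9 and 102 (1.58 ± 0.14, adjusted p = 0.000136). Neither overlapped, although both were spread more widely with 4-OHT than with EtOH. Elovl6, the elongase of saturated chains, rose from 188, 212 and 206 to 330, 337 and 307 CPM (0.68 ± 0.07, adjusted p = 7.22e-05). Ebp (0.62) lost its call without 4-OHT replicate 3 (0.56), and Insig1 (0.62), at 587, 616 and 648 against 852, 1003 and 995 CPM, without EtOH replicate 1 (0.56) or 4-OHT replicate 2 (0.58). Both were also lost with upper quartile scaling (0.57 each). Fads1 was at 208, 221 and 216 against 143, 143 and 151 CPM (-0.56 ± 0.06, adjusted p = 0.000111), lower in every 4-OHT library but under 1.5-fold. It was called lower with upper quartile scaling (-0.61) and without EtOH replicate 1 (-0.61) or 4-OHT replicate 3 (-0.59).

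Against the response of the Cdk19 ko/ko line on day 7, that of the D173A line was higher for Aacs (2.30 ± 0.10, adjusted p = 7.85e-10), Me1 (2.26 ± 0.21, adjusted p = 1.29e-05) and Scd1 (1.09 ± 0.28, adjusted p = 0.0201) and lower for Fads1 (-0.76 ± 0.12, adjusted p = 0.000507). Of all genes, 4.90% were called higher and 6.25% lower, and the share of members called was near that of all genes. No sterol gene or regulator was called, and the sterol median of the difference was 0.03, against 0.01 over all genes. Scd1 lost its call without EtOH day 7 replicate 1 of the ko/ko line (1.06, adjusted p = 0.0528). Line and count table cannot be told apart here for levels. In the D173A organoids 5 of 6 enterocyte markers rose with 4-OHT, and their summed level was 16875 to 19077 CPM against 12231 to 13329. Of 4 Paneth markers 3 fell and 1 rose, at sums of 1245 to 1450 against 1878 to 1971 CPM, and of 5 goblet markers 2 fell and 1 rose. Their part in the lipid results was not tested.

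In IECs 1 member was called, a sterol gene, and 0.646% of all genes were called higher and 0.856% lower. Mvd was at 21.3, 21.0 and 17.7 CPM in VillinCreERT2 mice and 30.5, 29.8 and 34.8 in mice with both kinases deleted (0.66 ± 0.12, adjusted p = 0.0466). The groups did not overlap, but the call was lost without replicate 1 (adjusted p = 0.106) or replicate 3 (adjusted p = 0.115) of the deleted group and without replicate 1 (adjusted p = 0.195) or replicate 3 (adjusted p = 0.252) of the controls. It was also lost with size factors by relative log expression (adjusted p = 0.0503) and with limma-voom (adjusted p = 0.0502), whereas DESeq2 called 5 members and 5.66% of all genes. Fdps was at 8.34, 6.79 and 7.70 against 14.0, 12.1 and 17.0 CPM (0.91 ± 0.17, adjusted p = 0.0526) and Scd1 at 6.80, 8.04 and 4.17 against 26.5, 15.2 and 45.3 (2.19 ± 0.45, adjusted p = 0.0869). Neither overlapped between groups and neither passed the test. Without replicate 2 of the deleted group, the library with Y-linked RNA, Mvd remained called (0.70, adjusted p = 0.0408) and Fdps (1.02, adjusted p = 0.0347) and Scd1 (2.5, adjusted p = 0.0398) were called too, so 3 members were called. Calls over all genes moved with the library left out as well, from 228 in the full fit to 42, 572 and 31 without replicate 1, 2 and 3 of the deleted group and to 5, 1566 and 3 without replicate 1, 2 and 3 of the controls. Scd1 stood far lower in IECs than in any organoid group, where its lowest library was at 152 CPM, the tables having been normalised separately. The sterol median was 0.33, with 16 of 17 sterol genes above 0, and the fatty acid median was 0.17, against 0.00 over all genes. The sterol median was 0.17 without replicate 3 of the deleted group, and the fatty acid median 0.036 without replicate 2 of that group.

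Hmgcs1 was at 157, 109 and 107 CPM in control IECs and 96.3, 128 and 150 in deleted IECs, Sqle at 66.0, 51.7 and 50.7 against 65.2, 86.7 and 93.2, and Fasn at 84.2, 85.6 and 84.0 against 69.0, 122 and 91.1. All 3 overlapped between groups and none was called. The Paneth markers summed to 666 to 1596 CPM in deleted IECs against 2765 to 4474 in controls and the goblet markers to 1801 to 2787 against 3366 to 4286, while the sums of the immune markers, at 1525 to 2144 against 1636 to 2735 CPM, and of the mesenchymal markers, at 255 to 500.1 against 8.94 to 509.6 CPM, overlapped. Gene by gene, 5 of 6 immune markers (median log2 fold change 1.44) and 4 of 4 mesenchymal markers (median 1.04) were above 0, none of them called. The part of these markers in the lipid values was not tested.

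**Figure D5:**
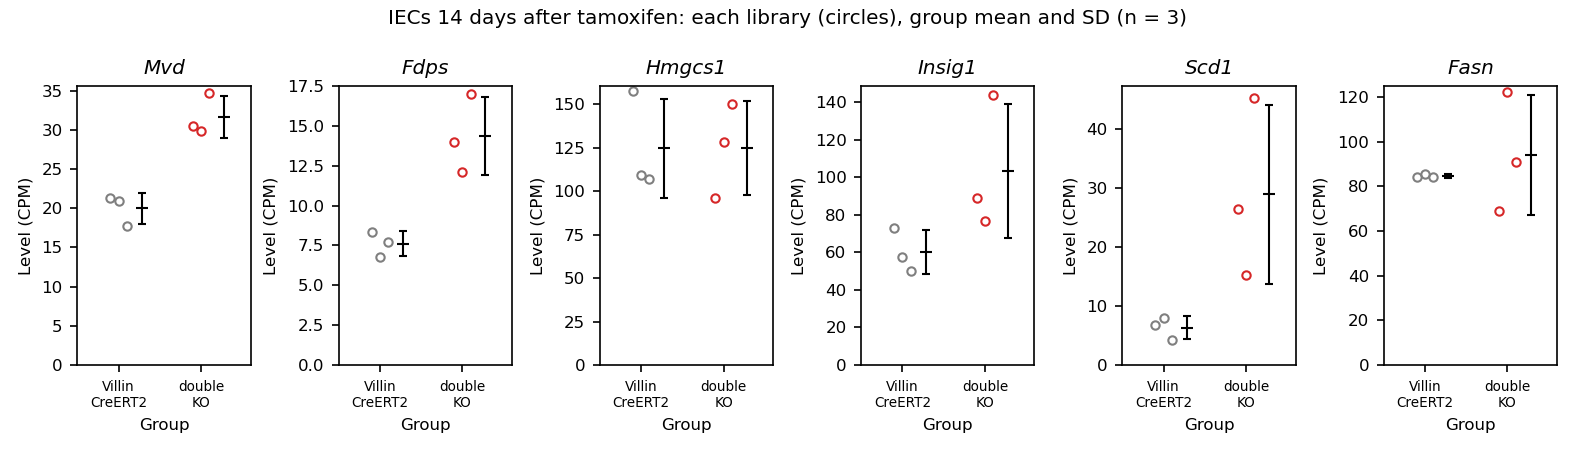
Levels in CPM of 6 genes in IECs of VillinCreERT2 mice (gray) and of mice with both kinases deleted (red), 14 days after tamoxifen; circles are libraries and the bar is mean and SD (n = 3). Mvd, Fdps, Insig1 and Scd1 do not overlap between groups, and Hmgcs1 and Fasn do.

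Among the regulators, neither SREBP gene was called in any of the 10 comparisons of deleted with control samples. Srebf1 was at 204, 191 and 205 CPM with EtOH and 182, 189 and 187 with 4-OHT on day 3, and at 277, 276 and 290 against 274, 249 and 243 on day 10. In Wnt3-CM it was at 175, 146 and 162 against 250, 227 and 199 CPM (0.49 ± 0.08, adjusted p = 9.87e-05), higher in each 4-OHT library and under 1.5-fold. With both kinases deleted on day 7 it was at 188, 181 and 197 in the control and 187, 180 and 174 in the deleted line. Its log2 fold changes thus ran from -0.17 on day 7 to 0.49 in Wnt3-CM. Srebf2 was at 492, 519 and 542 against 421, 397 and 392 CPM on day 10 (-0.36 ± 0.06, adjusted p = 4.44e-06) and at 623, 601 and 605 against 486, 504 and 420 in Wnt3-CM (-0.37 ± 0.07, adjusted p = 0.000215), lower in each 4-OHT library. It was at 558, 531 and 529 against 590, 593 and 562 on day 3. Insig1, the retention factor that is itself an SREBP target, was at 277, 250 and 247 against 647, 666 and 610 CPM in Wnt3-CM (1.31 ± 0.07, adjusted p = 1.81e-12) and at 606, 625 and 651 against 1049, 1099 and 1059 with both kinases deleted on day 7 (0.77 ± 0.06, adjusted p = 1.54e-11). It was called in those 2 and in the D173A line. Its time course values were 490, 449 and 475 against 505, 551 and 535 on day 3 and 546, 565 and 573 against 697, 717 and 663 on day 10, higher in every 4-OHT library but not called. Insig2 and Scap were not called in any of the 10.

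Over the same 10 comparisons 13 of the 36 members were never called, 6 of them sterol genes (Hmgcs1, Mvk, Fdft1, Sqle, Lss and Msmo1), 4 regulators and 3 fatty acid genes (Acaca, Fasn and Thrsp, the last untested). Tm7sf2 was called in 6, and Ebp and Scd1 in 5 each. Of the 35 members tested in all 10, 34.3% were never called, against 53.3% of the 12733 genes tested in all 10.

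Other genes of lipid metabolism were taken from fixed lists. Of 22 other lipid synthesis genes tested, 4 rose and 5 fell on day 3 (6.42% of all genes higher, 5.95% lower). On day 5, 5 rose and 1 fell (8.58% and 4.62%). On day 7 (9.00% and 9.25%) and on day 10 (8.86% and 6.92%) 4 rose and none fell. This list and the enterocyte markers share at least 1 gene, as both have the same lowest log2 fold change on day 3 (-1.93). Acacb, the mitochondrial isoform of acetyl-CoA carboxylase that restrains fatty acid oxidation, was at 0.432, 0.478 and 0.798 CPM with EtOH and 12, 17 and 12.9 with 4-OHT on day 3 (log2 fold change 4.60). It was at 0.433, 0.354 and 0.834 against 3.90, 6.41 and 3.64 CPM on day 5 (3.08), at 0.454, 0.0989 and 0.965 against 5.82, 14.2 and 11 on day 7 (4.35), and at 0.242, 0.202 and 0.558 against 0.213, 0.316 and 0.464 on day 10. The groups were far apart on days 3, 5 and 7 and overlapped on day 10. It was also higher with both kinases deleted on day 7, at 0.807, 1.20 and 1.35 against 11, 18.2 and 13.7 CPM (3.67). It rose by 1.23 with CDK8 deleted and by 0.93 in the D173A line, whose response was lower than that of the ko/ko line on day 7 (-3.42). In Wnt3-CM it rose by 1.55 on day 10, the day on which its groups overlapped in standard medium. It was not called in IECs (0.84). Gpam and Lpin1, which act in glycerolipid synthesis, rose on days 3, 5 and 7, Gpam by 1.01, 0.81 and 0.63 and Lpin1 by 0.83, 0.59 and 0.63 on the log2 scale. Of 7 tested LXR targets and efflux genes 3 fell on day 3, against 5.95% of all genes. These were the sterol exporter genes Abcg5 at -1.84 and Abcg8 at -1.56, and the LXR alpha gene Nr1h3 at -1.18. On day 10 Abcg5 (0.66), Abcg8 (0.75), Nr1h3 (0.93) and Mylip (1.55) rose and Abca1 (-1.39) fell, against 8.86% of all genes higher and 6.92% lower. Between them, Abca1 was the 1 gene of the list called lower on day 5 (-2.73) and on day 7 (-3.22), from a mean level of 0.973 and 1.03 CPM with EtOH, and Lpcat3 rose on day 7 (0.61). In the D173A line Abca1 went the other way, from 4.40, 2.16 and 2.41 CPM with EtOH to 37.6, 25.7 and 22.6 with 4-OHT (3.26). It was the 1 gene called of 8 tested, all of which were above 0, against 6.05% of all genes higher. Elsewhere 2 of 7 were called lower with CDK8 deleted (4.34% of all genes) and with both deleted (7.95%). Called higher were 2 of 7 with CDK19 deleted (2.86%) and 2 of 5 in Wnt3-CM (9.45%). In IECs 2 of 8 were called lower (0.856%). Of 6 genes of SREBP processing, Pgrmc1 alone was called, higher on day 10 (0.89) and in Wnt3-CM (0.69), and the site-1 and site-2 protease genes Mbtps1 and Mbtps2 ranged from -0.48 to 0.11 over the 10 comparisons.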

How the data were processed

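PolyA RNA of organoids and IECs had been sequenced as 100 bp paired-end reads. The authors deposited whole-number read counts per gene, not normalised. The submitters' processing notes name STAR 2.5.2, featureCounts from Subread 1.6.3 and the mm10 build, with no strand setting given in the sources used here. Of the columns, 6 (IECs with D173A alleles) matched no single label and were not used; the Cdk19 D173A organoid columns were assigned by elimination and the Wnt3-CM columns by name.

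Each table was fitted over all genes in edgeR 4.0.16 (R 4.3.3; filterByExpr, TMM, robust quasi-likelihood F test), the 24 time course libraries together, the 15 organoid lines together and the other sets by themselves. The sterol and fatty acid medians are descriptions with no test. The fits were tested on simulated data. Every replicate pair differed beyond sampling noise, so no library was counted as a copy. No replicate block was used.

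Values are given in every sample, in at least 1 comparison, for Hmgcs1, Sqle, Insig1, Srebf1, Srebf2, Fasn, Scd1 and the members with the largest called changes, up to 3 per pathway and comparison. The members, the lists of other genes and the tests were chosen with earlier results of these data known. Alternatives were other filters, scalings and tools (DESeq2 1.42.0, limma-voom with limma 3.58.1), no size threshold, another control, a replicate block, fits of only the groups compared, and each library left out.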

Additional observations from a re-analysis of the deposited data

Results flagged for a closer look

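The responses of 6 fatty acid genes differed between day 10 and day 3 by a test of the difference itself, each lower on day 10, against 13.9% of all genes called higher and 12.4% lower. The log2 differences were -1.26 for Fads1, -1.19 for Elovl5, -1.06 for Acly, -0.81 for Fasn, -0.71 for Scd1 and -0.63 for Acaca.

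In the comparison of lines, 7 of the 35 members tested departed from the sum of the single deletions when both kinases were deleted. Of all genes, 11.3% were above the sum and 8.34% below it, so the share of members called was near that of all genes. The 7 called by the test of that difference were Tm7sf2 (0.85), Fads1 (0.76), Fdps (0.74), Scd1 (0.73), Acss2 (0.72), Insig1 (0.64) and, in the other direction, Me1 (-1.25).

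Between media on day 10 the 4-OHT response differed for 18 members, each higher in Wnt3-CM, against 7.11% of all genes called higher and 6.21% lower. Among sterol genes the log2 differences were 1.5 for Acat2, 1.02 for Dhcr7, 0.78 for Nsdhl, 0.75 for Mvd, 0.71 for Tm7sf2, 0.70 for Ebp and 0.67 for Pmvk. Among regulators they were 1.01 for Insig1 and 0.62 for Srebf1. Among fatty acid genes they were 2.40 for Scd1, 1.62 for Fads1, 1.33 for Acss2, 1.22 for Fads2, 1.09 for Scd2, 0.91 for Fasn, 0.81 for Acaca, 0.74 for Acly and 0.71 for Elovl5.

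Between the D173A line and the Cdk19 ko/ko line on day 7 the response differed by 2.30 for Aacs, 2.26 for Me1, 1.09 for Scd1 and -0.76 for Fads1, against 4.90% of all genes called higher and 6.25% lower. The share of members called was near that of all genes. In these comparisons of media and of lines the count table differed together with the medium or the line, and its part was not tested.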

How the results depend on the processing

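Of 7630 values of single members under an alternative, 7353 kept direction and side of the thresholds, 58 lost a call, 59 gained one, 157 uncalled values changed sign and 3 reversed. The 3 were values of Me1 when the 2 control lines were averaged, at 0.92 with CDK8 deleted, -0.080 with CDK19 deleted and 0.59 with both deleted. With that average the called members numbered 2 for CDK8 (8.35% of all genes called) and 0 for CDK19 (5.3%). The medians for CDK8 were -0.0096 (sterol) and 0.22 (fatty acid), and the fatty acid medians were -0.029 for CDK19 and 0.35 for both. With no size threshold the members past adjusted p, with the share of all genes in parentheses, numbered 25 on day 3 (34.4%), 23 on day 5 (38.3%), 25 on day 7 (45.2%), 30 on day 10 (44.3%), 34 in Wnt3-CM (48.2%), 21 in the D173A line (27.8%), 12 with CDK8 deleted (30.3%), 7 with CDK19 deleted (15.5%) and 30 with both (52.9%). The fatty acid median on day 3 was 0.38 with no filter on low counts, 0.53 with upper quartile scaling and 0.53 with only the groups compared. In the D173A line it was 0.23 with no filter and 0.15 with upper quartile scaling, and with both kinases deleted it was 0.30 with either, where the sterol median was 0.35 with upper quartile scaling. In IECs the called members, with the share over all genes, numbered 2 with no filter (3.51%), 2 with at least 10 counts in every library (2.15%), 2 with upper quartile scaling (1.18%), 5 with DESeq2 (5.66%), and 0 with size factors by relative log expression (1.5%), limma-voom (1.48%) or the replicate block (0.0527%). With at least 10 counts in every library 5 members were called between EtOH day 10 and day 3, 2 of them lower, against 34.4% of all genes called.

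With 1 library left out, the called members ranged from 1 to 2 on day 5, from 0 to 3 in IECs and from 3 to 6 between the control lines. Over all genes the number called ranged from 1701 to 2138, from 3 to 1566 and from 3720 to 4148 in the same comparisons. The sterol median ranged from 0.20 to 0.31 on day 7 and from 0.26 to 0.36 with both kinases deleted, and the fatty acid median from 0.49 to 0.54 on day 3, 0.13 to 0.19 in the D173A line, 0.035 to 0.12 with CDK8 deleted and -0.029 to 0.069 with CDK19 deleted. Between EtOH day 10 and day 3, Hmgcs1 (0.57 without day 3 replicate 3), Pmvk (0.55 without day 3 replicate 2), Aacs (0.56 without day 3 replicate 3), Elovl5 (0.56 without day 10 replicate 2), Elovl6 (0.54 without day 3 replicate 2) and Insig2 (0.54 without day 3 replicate 2) fell under the size threshold. Me1 on day 7 (-0.68) passed the test in 5 alternatives that kept every library.

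Deviations of libraries with equal replicate numbers did not correlate above 0.1 for every pair in any fit, the lowest r being -0.14 in the time course, -0.074 among lines, -0.41 in IECs and 0.095 both in Wnt3-CM and in the D173A line. The median r for equal and unequal numbers was 0.13 and -0.11 in Wnt3-CM and 0.19 and -0.18 in the D173A line. It was 0.013 and -0.00021 in the time course, 0.014 and -0.012 among lines, and -0.16 and 0.14 in IECs. Libraries that correlated best with 1 of their own number were 15 of 24, 6 of 15, 0 of 6, 6 of 6 and 4 of 6, a hint from the data and not from the design. Apart from the IECs, the replicate block left the counts of called members in deleted against control samples as they were, including 19 in Wnt3-CM and 6 in the D173A line. For the difference between days and for the sum of the single deletions the block was run, with 26.5% and 19.7% of all genes called. It was not run for the differences between media or between the D173A and ko/ko lines. With 3 libraries a group, single libraries decided calls near 1.5-fold and some far from it.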

Other observations

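Over the 24 time course libraries the genes whose log2 CPM followed Hmgcs1 most closely by Pearson's r were Eif3b (0.914), Psmd3 (0.912), Tomm40 (0.906), Pde12 (0.906) and Mars (0.904). Among the members the closest were Aacs (0.775), Srebf1 (0.733), Scap (0.687) and Idi1 (0.626), and Mvd was at -0.30. These values describe libraries that share days and treatment.

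Pnpla3, a lipid droplet enzyme gene that SREBP1 is known to induce, was at 0.0475, 0.096 and 0.150 CPM in VillinCreERT2 organoids on day 7 and at 2.81, 2.71 and 3.27 with both kinases deleted. The groups were apart at a log2 fold change of 4.83, and with CDK8 alone deleted it was at 2.58, both called. The control level was near 0, so the size of these changes is uncertain. Pnpla3 was tested with CDK19 deleted and in the D173A line too. No other lipid synthesis gene of its list exceeded 0.82 with CDK19 deleted, with none called, or 0.99 in the D173A line. In the time course it did not pass the filter on low counts and was not tested.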
